A study of Mus musculus with 8 samples.

Results

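Lipolysis is the stepwise release of fatty acids from the triglyceride stored in adipocytes. The 9 genes of that process considered here were chosen by name: the lipases Pnpla2, Lipe, Mgll and Abhd6, the lipase regulators Abhd5 and G0s2, and the signalling genes Pde3b, Prkar2b and Adora1. The probe annotation used here paired 6 of these 9 genes with 12 of the 20380 probe sets that name a single gene, and all 6 were among the 9293 of 12393 genes bright enough to be tested. Pde3b, Prkar2b and Adora1 were paired with no probe set in that annotation and were not analysed here.

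The cells were stromal-vascular cells of the inguinal fat pad, a subcutaneous white depot, from male C57BL/6J mice, differentiated into adipocytes in culture. They expressed a short hairpin RNA, either the control hairpin sh-scr or sh-PRDM16, directed against PRDM16, a transcriptional co-regulator of the brown and beige fat programme. Each kind of cell was left without an agent or was given 1 µM rosiglitazone, an agonist of the nuclear receptor PPARγ, which made 4 groups of 2 Affymetrix mouse 430A_2 arrays each: untreated sh-scr, rosiglitazone-treated sh-scr, untreated sh-PRDM16 and rosiglitazone-treated sh-PRDM16. Per the labels the 2 arrays of a group are biological replicates, but no separate animal or culture is named for either, and every p-value measures only the spread between these arrays. Prdm16 had no probe set in the annotation used, so the knockdown was not checked: sh-PRDM16 cells are called knockdown cells here from their label.

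In an adipocyte, triglyceride on the lipid droplet is first cut by adipose triglyceride lipase, the product of Pnpla2. Hormone-sensitive lipase (Lipe) then cuts diglyceride, and monoglyceride lipase (Mgll) releases the last fatty acid together with glycerol. Catecholamines drive the cascade through cyclic AMP and protein kinase A, while insulin and several receptors coupled to inhibitory G proteins restrain it. Abhd5, also called CGI-58, activates adipose triglyceride lipase, and the small protein G0s2 inhibits it. Abhd6 is a monoglyceride hydrolase outside the classical cascade. Pnpla2 and G0s2 are known target genes of PPARγ.

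The 250 bases before the RefSeq start of the 4 members that rose with rosiglitazone in both kinds of cell are shown because these genes moved together in the comparisons that follow. They are from GRCm38.p6, where all 6 measured members had an entry, with the first listed start used for Lipe and Mgll, which have more than one. Pnpla2 lies at chr7:141454938-141455187 on the plus strand, Lipe at chr7:25395988-25396237 on the minus strand, Mgll at chr6:88724162-88724411 on the plus strand and Abhd5 at chr9:122351366-122351615 on the plus strand. Capitals mark matches on either strand to AGGTCA (the core site of nuclear receptors), CACGTG (an E-box) or TTGCNNCAA (a spaced pattern that the C/EBP palindrome does not match). Matches to TGACGTCA (the full cyclic AMP response element) and GGGCGG (a GC box) are also in capitals.
Pnpla2: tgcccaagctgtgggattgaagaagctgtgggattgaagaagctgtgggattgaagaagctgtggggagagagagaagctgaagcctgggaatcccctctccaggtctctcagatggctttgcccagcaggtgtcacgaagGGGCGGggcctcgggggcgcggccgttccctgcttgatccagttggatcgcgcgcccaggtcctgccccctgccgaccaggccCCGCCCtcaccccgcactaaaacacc
Lipe: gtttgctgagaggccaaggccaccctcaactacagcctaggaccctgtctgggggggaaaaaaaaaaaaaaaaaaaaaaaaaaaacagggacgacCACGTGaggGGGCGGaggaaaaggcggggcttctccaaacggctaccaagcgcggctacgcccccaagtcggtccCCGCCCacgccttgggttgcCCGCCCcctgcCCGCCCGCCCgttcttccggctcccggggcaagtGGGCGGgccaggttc
Mgll: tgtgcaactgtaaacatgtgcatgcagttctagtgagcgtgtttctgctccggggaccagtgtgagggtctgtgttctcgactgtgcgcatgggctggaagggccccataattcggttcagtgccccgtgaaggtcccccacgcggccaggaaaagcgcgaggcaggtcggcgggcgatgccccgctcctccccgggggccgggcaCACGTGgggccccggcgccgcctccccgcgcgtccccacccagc
Abhd5: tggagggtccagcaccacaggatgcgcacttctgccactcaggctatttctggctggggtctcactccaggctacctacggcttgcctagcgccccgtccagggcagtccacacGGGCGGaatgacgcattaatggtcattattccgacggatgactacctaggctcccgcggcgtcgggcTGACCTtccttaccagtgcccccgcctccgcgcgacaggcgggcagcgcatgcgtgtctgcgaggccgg
AGGTCA occurred in the Abhd5 window, 69 bases before the start, and in none of the other windows of the 6 members, against 14.0% of all 32851 RefSeq promoter windows of 250 bases. CACGTG occurred in the shown windows of Lipe and Mgll, 155 and 44 bases before the start, against 6.02% of all windows. Neither TTGCNNCAA (1.74% of all windows) nor TGACGTCA (1.55%) was found in any member's window. The absence of TTGCNNCAA does not bear on C/EBP sites, which were not searched for. GGGCGG, found in 32.7% of all windows, occurred 2 times in the Pnpla2 window and 6 times in that of Lipe, where one pair of matches overlapped. It was found once in the Abhd5 window and not in the Mgll window shown.

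The adipocyte label was borne out by the array: Fabp4, Adipoq, Lpl and Cd36, which encode a fatty acid carrier, adiponectin, lipoprotein lipase and a fatty acid transporter, were bright in every group. The summed intensity of 8 measured adipocyte markers was 74342 to 75619 on the untreated sh-scr arrays, 67493 to 71894 with rosiglitazone, 46839 to 53522 on the untreated sh-PRDM16 arrays and 61955 to 66399 with rosiglitazone. The summed intensity of 10 macrophage and leukocyte markers was 4777 to 5243 and 3061 to 3088 in the sh-scr groups, against 1027 to 1131 and 845 to 885 in the sh-PRDM16 groups. The sum over 9 stromal markers was 14964 to 15476 on the untreated sh-scr arrays and 8183 to 9148 with rosiglitazone, against 13130 to 15502 and 10445 to 11394 in the sh-PRDM16 groups. The sum over 7 muscle markers was 28295.5 to 29252.8 on the untreated sh-scr arrays and 20121.1 to 21020.1 with rosiglitazone. In the sh-PRDM16 groups it was 26891.4 to 28970.5 untreated and 25438 to 25667.6 with rosiglitazone. A list of 7 endothelial markers summed to between 313.3 and 760.2 on every array. No marker list was at 0 as a whole in any group. In bulk RNA of this kind, fewer cells of a type and less RNA per cell cannot be told apart. Array medians ran from 100.7 to 135.65 intensity units, the replicates of a group correlated at 0.991 over all probe sets, and arrays of different groups correlated at no more than 0.984.

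Pnpla2 transcript was most abundant in rosiglitazone-treated control cells and least abundant in untreated PRDM16-knockdown cells. Its brighter probe set read 2528.3 and 2770.6 intensity units on the untreated sh-scr arrays, 5010.7 and 4834.5 on the rosiglitazone-treated sh-scr arrays, 1040.2 and 910.3 on the untreated sh-PRDM16 arrays and 3316.1 and 3772.1 on the rosiglitazone-treated sh-PRDM16 arrays. No group overlapped any other, and the treated knockdown arrays lay above the untreated control arrays. With so few arrays per group, separation can arise by chance, here and for the genes below. The share of all genes that separate in this way is not given here. The dimmer Pnpla2 probe set, at 13.5 to 167.8 units, gave the same order of group means, with 19.0, 56.9, 86.5 and 164.6 units from the lowest to the highest group.

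Lipe, the hormone-sensitive lipase, followed the same order of groups. Its probe set read 1035.3 and 1169.7 units in untreated sh-scr cells, 1850.6 and 1861.5 with rosiglitazone, 558.1 and 443.1 in untreated sh-PRDM16 cells and 1320.1 and 1616.6 with rosiglitazone. All 4 groups were separate, with untreated knockdown cells lowest.

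Mgll, the last lipase of the cascade, differed from Pnpla2 and Lipe in that the treated groups overlapped. Its brightest probe set read 2388.8 and 2829.6 units in untreated sh-scr cells, 4945.8 and 4541.9 with rosiglitazone, 1504.8 and 1207.1 in untreated sh-PRDM16 cells and 4339.2 and 4722.7 with rosiglitazone. Both untreated groups lay apart below them. This probe set carries the suffix that Affymetrix gives to probes shared by several transcripts, but the next 2 Mgll probe sets, with means over the 8 arrays of 2899 and 2341 units, showed the same order of the untreated groups and the same overlap of the treated ones.

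Abhd6, the monoglyceride hydrolase outside the cascade, had another pattern. It read 221.8 and 256.3 units in untreated sh-scr cells, 195.9 and 198 with rosiglitazone, 163.7 and 158.7 in untreated sh-PRDM16 cells and 293 and 295.7 with rosiglitazone. Its highest group was therefore the treated knockdown cells. In control cells the treated arrays lay below the untreated ones in the intensities as deposited. That order was not kept after subtraction of each array's median: the treated and untreated control arrays then overlapped, with a log2 change of 0.04. The second Abhd6 probe set was dim, at 50.1 to 118.4 units, and its highest array, in the treated knockdown group, had a replicate at 69.9 units.

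Abhd5, the activator of adipose triglyceride lipase, read 2657.5 and 2798.7 units in untreated sh-scr cells, 3554.8 and 3611.4 with rosiglitazone, 1433.8 and 1244.7 in untreated sh-PRDM16 cells and 2940.4 and 3106 with rosiglitazone. The 4 groups were separate and stood in the same order as for Pnpla2. Its second probe set read from 755.2 to 1601.8 units, with untreated knockdown lowest and with the treated groups overlapping.

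G0s2, the inhibitor of the same lipase, read 5631.8 and 6181.7 units in untreated sh-scr cells, 6357.3 and 6966.9 with rosiglitazone, 2941.5 and 2637.9 in untreated sh-PRDM16 cells and 4982.2 and 5277.7 with rosiglitazone. Unlike Pnpla2, Lipe, Mgll and Abhd5, G0s2 read lower in treated knockdown cells than in untreated control cells in the intensities as deposited. This gap depended on the scale. After subtraction of each array's median, G0s2 changed by -0.89 log2 units with sh-PRDM16 in untreated cells. It then changed by 0.86 with rosiglitazone in knockdown cells, a rise of nearly the same size as that fall. Untreated knockdown was again the lowest group.

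**Figure D1:**
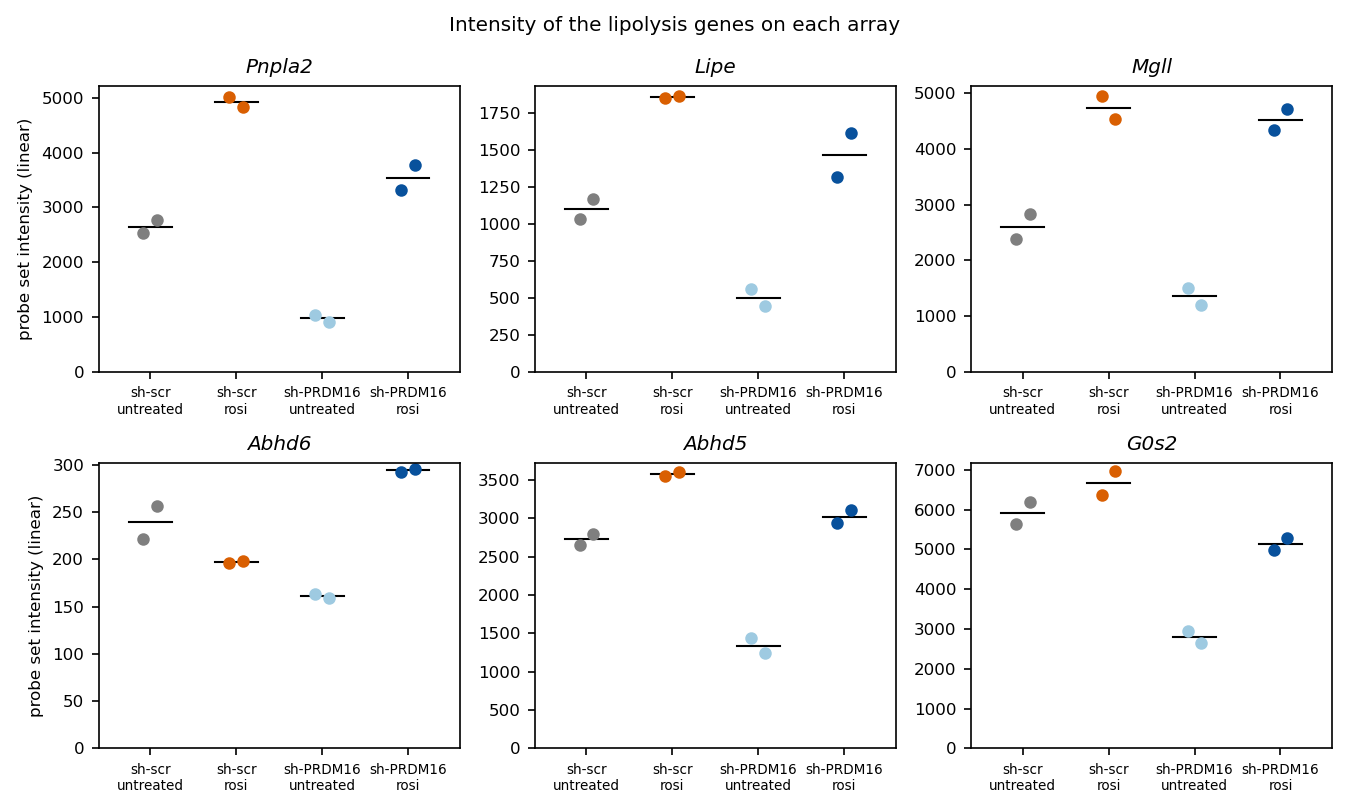
Intensity (linear, each axis from 0) of the brightest probe set of each measured lipolysis gene, with 1 point per array and a line at the mean of the 2 arrays of a group. Untreated sh-PRDM16 cells are the lowest group in all 6 panels, and Abhd6 is highest in rosiglitazone-treated sh-PRDM16 cells, at 293 and 295.7 units.

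The first comparison set knockdown against control cells, both untreated. All 6 measured members fell, the lipases Pnpla2, Lipe, Mgll and Abhd6 as well as the activator Abhd5 and the inhibitor G0s2. On the log2(intensity + 16) scale used for all changes, Pnpla2 fell by 1.43 (SE 0.14, limma adjusted p = 2.52e-04), which is 2.69-fold. Lipe fell by 1.12 (SE 0.16, adjusted p = 0.00183), G0s2 by 1.08 (SE 0.13, adjusted p = 8.03e-04), Abhd5 by 1.02 (SE 0.13, adjusted p = 9.41e-04) and Mgll by 0.94 (SE 0.15, adjusted p = 0.00394). The change of Abhd6 was the smallest, a fall of 0.52 (SE 0.13, adjusted p = 0.0217). It missed the threshold without either untreated sh-scr array (adjusted p = 0.0518 and 0.21) or without the second untreated sh-PRDM16 array (0.0746), and with the mean of both Abhd6 probe sets (-0.37, adjusted p = 0.106). The second Abhd6 probe set alone gave -0.22 (adjusted p = 0.524 over all probe sets), or -0.03 with median-centred arrays. The second Abhd5 probe set gave -0.52 (adjusted p = 0.0548).

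Of all 9293 genes tested in that comparison, 15.7% fell and 1.98% rose at an adjusted p under 0.05, with a median change of -0.16. When each array was centred on its own median, 12.6% fell and 8.77% rose, and all 6 members still fell, by 0.34 to 1.24. Over the members the median change was -1.05 on the deposited scale. The adipocyte marker list moved in the same direction, with 7 of its 8 tested genes falling (median -0.996, led by Lep, Retn and Cd36 at -2.05, -1.95 and -1.12), and so did the macrophage list, with 6 of 8 falling (median -1.56, led by Lyz2, Cd68 and Mrc1 at -3.69, -2.41 and -2.17). With median-centred arrays 6 of 8 fell in each list. The part of either list in the fall of the members was not tested.

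The second comparison asked how rosiglitazone acted on the members in control cells. Pnpla2, Mgll, Lipe and Abhd5 rose, and the changes of G0s2 and Abhd6 did not pass the test. Pnpla2 rose 1.85-fold (log2 change 0.89, SE 0.14, adjusted p = 0.00277), Mgll 1.82-fold (0.86, SE 0.15, adjusted p = 0.00535) and Lipe 1.68-fold (0.75, SE 0.16, adjusted p = 0.00986). Abhd5 rose 1.31-fold (0.39, SE 0.13, adjusted p = 0.0409). In the limma fit of single probe sets, neither the brighter nor the second Abhd5 probe set passed (0.39 and 0.41, adjusted p = 0.0541 and 0.065). G0s2 changed by 0.17 (95% interval -0.12 to 0.47, adjusted p = 0.307) and Abhd6 by -0.26 (-0.54 to 0.03, adjusted p = 0.131).

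In control cells the deposited scale itself shifted with the drug, since the median of all genes tested moved by -0.31, and 5.24% of them rose while 32.3% fell. With median-centred arrays, 14.3% rose and 11.8% fell. On that scale the rises were 1.19 for Pnpla2, 1.16 for Mgll, 1.04 for Lipe and 0.69 for Abhd5, G0s2 also rose (0.47, adjusted p = 0.013), and the value for Abhd6 turned to 0.04 (adjusted p = 0.797). The call on Abhd5 was lost without any one of the untreated or treated sh-scr arrays or of the treated sh-PRDM16 arrays (adjusted p from 0.058 to 0.184). That on Lipe was lost without the first untreated sh-scr array (0.0561). Of 7 tested stromal markers, 6 fell with rosiglitazone in these cells, led by Pdgfrb, Fap and Klf2 at -0.99, -0.86 and -0.85. Of 5 tested endothelial markers 3 fell (Emcn, Pecam1 and Tek at -1.22, -0.63 and -0.58), and all 5 tested muscle markers fell, led by Myh11, Cnn1 and Des at -1.35, -1.26 and -0.95. These counts are of the deposited scale. With median-centred arrays 5 stromal, 1 endothelial and 3 muscle markers fell. The adipocyte markers Lep and Retn fell by 2.30 and 1.36, and the other 6 tested adipocyte markers did not pass the test. With median-centred arrays 1 adipocyte marker rose and 2 fell. The log2 difference between 3′ and 5′ control probe sets of Gapdh, a sign of RNA integrity, was -0.35 to -0.33 on the 4 treated arrays of both hairpins and -0.45 to -0.40 on the 4 untreated arrays. For beta-actin this difference was 0.38 and 0.49 on the treated sh-scr arrays and 0.33 and 0.34 on the treated sh-PRDM16 arrays. On the 4 untreated arrays it was 0.25 to 0.32. The part of these shifts in the members' values was not tested.

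The third comparison asked the same in PRDM16-knockdown cells, where all 6 members rose. Pnpla2 rose 3.59-fold (log2 change 1.84, SE 0.14, adjusted p = 4.43e-05), Mgll 3.33-fold (1.74, SE 0.15, adjusted p = 1.21e-04) and Lipe 2.88-fold (1.52, SE 0.16, adjusted p = 3.10e-04). The activator Abhd5 rose 2.25-fold (1.17, SE 0.13, adjusted p = 4.15e-04), the inhibitor G0s2 1.84-fold (0.88, SE 0.13, adjusted p = 0.0025) and Abhd6 1.75-fold (0.81, SE 0.13, adjusted p = 0.00304).

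In these cells the median change of all genes tested was 0.00, with 10.2% rising and 3.35% falling, or 14.6% and 9.91% on median-centred arrays. The median over the members was 1.35. Of the adipocyte markers, Cd36 rose by 1.28, Lep fell by 2.26, Retn fell by 1.13, and the other 5 tested did not pass the test, while with median-centred arrays 4 rose and 2 fell. Of 7 tested stromal markers 2 fell, Fap and Klf2 (-0.65 and -0.55), or 6 with median-centred arrays. Among 5 endothelial markers Tek and Emcn fell (-1.08 and -0.73), among 5 muscle markers Myh11 and Cnn1 (-1.12 and -0.68), and among 8 macrophage markers Lyz2 (-0.78). The part of these lists in the members' rise was not tested. Among the dim probe sets, the second of Pnpla2 rose by 1.56 and the fourth of Mgll by 2.22 (adjusted p = 0.0015 and 0.007, over 15285 probe sets), while the second of Abhd6 gave 0.69 (adjusted p = 0.0631).

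The fourth comparison set knockdown against control cells when both had received rosiglitazone. Abhd6 was higher in the knockdown, 1.46-fold (log2 change 0.54, SE 0.13, adjusted p = 0.0226), and Pnpla2 was lower, 1.39-fold (-0.47, SE 0.14, adjusted p = 0.0462). G0s2 differed by -0.38 (95% interval -0.67 to -0.08, adjusted p = 0.083), Lipe by -0.34 (-0.70 to 0.02, adjusted p = 0.166) and Abhd5 by -0.24 (-0.54 to 0.05, adjusted p = 0.211). For Mgll the difference was -0.07 (-0.41 to 0.28, adjusted p = 0.791), and the arrays of the groups overlapped.

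Of all genes tested with both groups on rosiglitazone, 10.6% were higher and 4.77% lower in the knockdown, around a median of 0.15. After median-centring these shares were 12.2% and 12.4%, and Lipe, Abhd5 and G0s2 were then lower as well (-0.47, -0.37 and -0.50), which made 4 members lower and 1 higher. Neither call of the deposited scale stood without any one of the arrays compared: Abhd6 then had adjusted p-values of 0.0837 to 0.114 and Pnpla2 of 0.0993 to 0.19, and without either untreated sh-scr array Pnpla2 had 0.0724. At the level of probe sets, the dim one of Pnpla2 was lower by 0.83 (adjusted p = 0.0339) and the bright one by 0.47 (adjusted p = 0.0641). In all, 2 of 8 adipocyte markers (Lep and Retn) and 7 of 8 macrophage markers were lower in the treated knockdown cells, and with median-centred arrays 5 and 7 of 8. The macrophage list was led by Lyz2, Cd68 and Adgre1, at -3.62, -2.13 and -1.94, and the part of either list in these differences was not tested.

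The last comparison tested whether the response to rosiglitazone differed between the 2 kinds of cell. By the brightest probe set of each gene, the response was larger in knockdown cells for all 6 members as a point value, and it passed the test for Abhd6 (difference of log2 changes 1.07, SE 0.18, adjusted p = 0.0397). The differences were 0.95 for Pnpla2 (95% interval 0.52 to 1.39, adjusted p = 0.0619), 0.87 for Mgll (0.38 to 1.37, 0.0991), 0.78 for Abhd5 (0.36 to 1.19, 0.0898), 0.78 for Lipe (0.27 to 1.29, 0.128) and 0.70 for G0s2 (0.28 to 1.12, 0.111). The dim second probe set of Pnpla2 gave 0.24 (adjusted p = 0.555 over all probe sets). With median-centred arrays it gave -0.07 (95% interval -0.53 to 0.39). The size of the difference for Pnpla2 therefore depended on the probe set, and the dim one settled no direction. The gene values stand beside a median of 0.33 over all genes tested, of which 0.678% had a larger response and 0.0753% a smaller one in the knockdown.

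With median-centred arrays the 6 differences ran from 0.39 to 0.75 around a median of 0.02 for all genes. None of the members then passed limma's adjusted threshold, against 0.0108% and 0.043% of all genes with a larger or smaller response. At an unadjusted p under 0.05, 6 members and 1243 of the 9293 genes passed. For Abhd6 on the deposited scale, leaving out any one of the 8 arrays gave an adjusted p from 0.055 to 0.155. All 6 members passed when the lower 50% of genes were left out, with a pseudocount of 64 or with a trended prior. In those settings 16.7%, 8.41% and 13.9% of all genes tested passed in either direction, against 0.753% in the main fit.

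**Figure D2:**
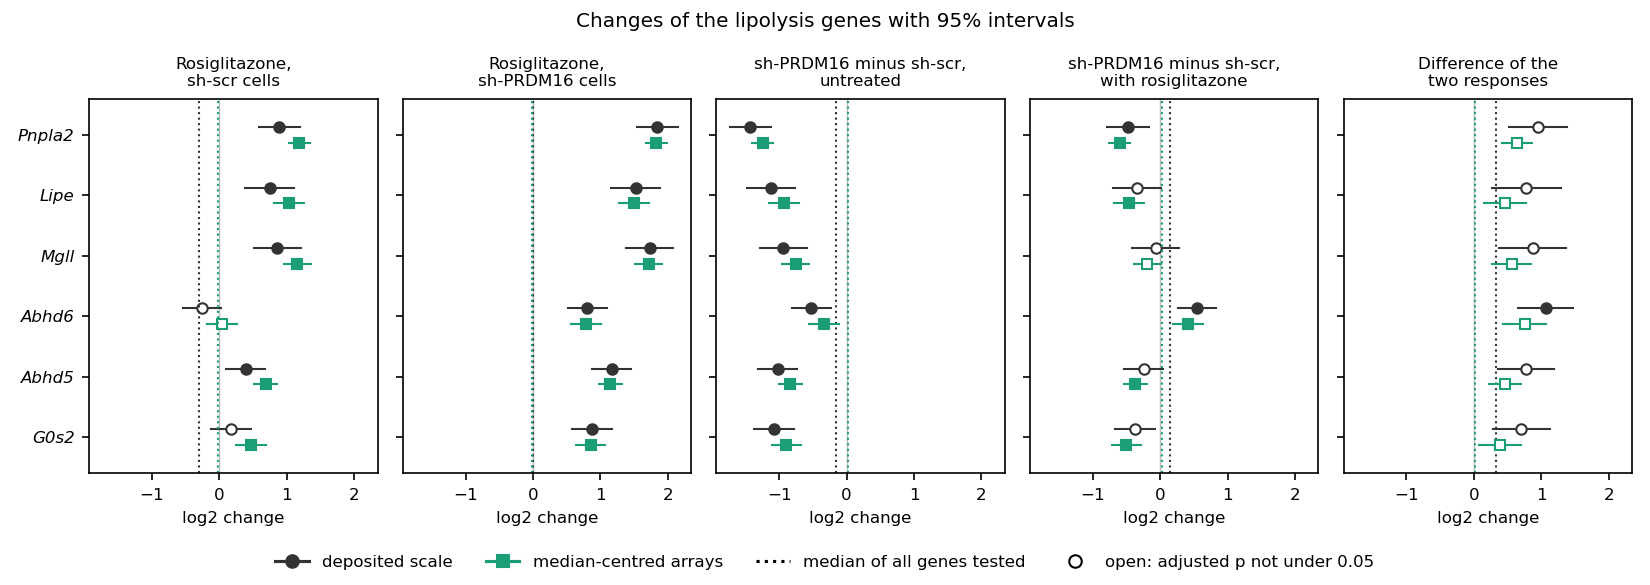
Log2 change of each measured lipolysis gene in the 5 comparisons, with its 95% interval, on the deposited scale (circles) and with each array centred on its median (squares). Filled symbols had an adjusted p under 0.05 and dotted lines mark the median of all genes tested. All 6 genes lie below 0 in untreated knockdown cells and above 0 with rosiglitazone in knockdown cells on both scales.

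The balance between the lipase Pnpla2 and its regulators was followed as a difference of probe sets within each array, which removes any factor common to the array. The level of such a difference has no meaning between probe sets, but its change between groups can be read. G0s2 minus Pnpla2 was 1.15 and 1.15 on the log2 scale in untreated sh-scr cells, 0.34 and 0.53 with rosiglitazone, 1.49 and 1.52 in untreated sh-PRDM16 cells and 0.58 and 0.48 with rosiglitazone. The inhibitor thus read lower relative to the lipase on all 4 treated arrays, by 0.72 in control and 0.97 in knockdown cells, and higher by 0.35 in untreated knockdown than in untreated control cells. The pooled SD of replicates was 0.08. An exact two-sided permutation test of 2 against 2 arrays cannot go below p = 0.33, which each of these comparisons gave.

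The activator relative to the inhibitor, Abhd5 minus G0s2, was -1.08 and -1.14 in untreated sh-scr cells, -0.84 and -0.94 with rosiglitazone, -1.03 and -1.07 in untreated sh-PRDM16 cells and -0.76 and -0.76 with rosiglitazone. Treated arrays were higher than untreated ones of the same hairpin, by 0.22 and 0.29, at a pooled SD of 0.05. These values use the brighter Abhd5 probe set. By the second one Abhd5 rose with rosiglitazone by 0.41 in control cells, against 0.17 for G0s2. In knockdown cells it rose by 0.91, against 0.88 for G0s2. In untreated knockdown cells it changed by -0.52, against -1.08 for G0s2. The size of the change of Abhd5 relative to G0s2 therefore depended on the Abhd5 probe set. Lipe minus Pnpla2 rose by 0.31 in untreated knockdown cells and changed by -0.15 and -0.32 with rosiglitazone in control and knockdown cells, at a pooled SD of 0.07. The exact permutation p was 0.33 in each case. These differences use the bright Pnpla2 probe set: by the dim one Pnpla2 fell by 1.07 in untreated knockdown cells, against 1.12 for Lipe and 1.08 for G0s2, and rose by 1.56 with rosiglitazone in knockdown cells, against 1.52 for Lipe, so the differences in untreated knockdown cells and the order of Lipe and Pnpla2 depended on the probe set.

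**Figure D3:**
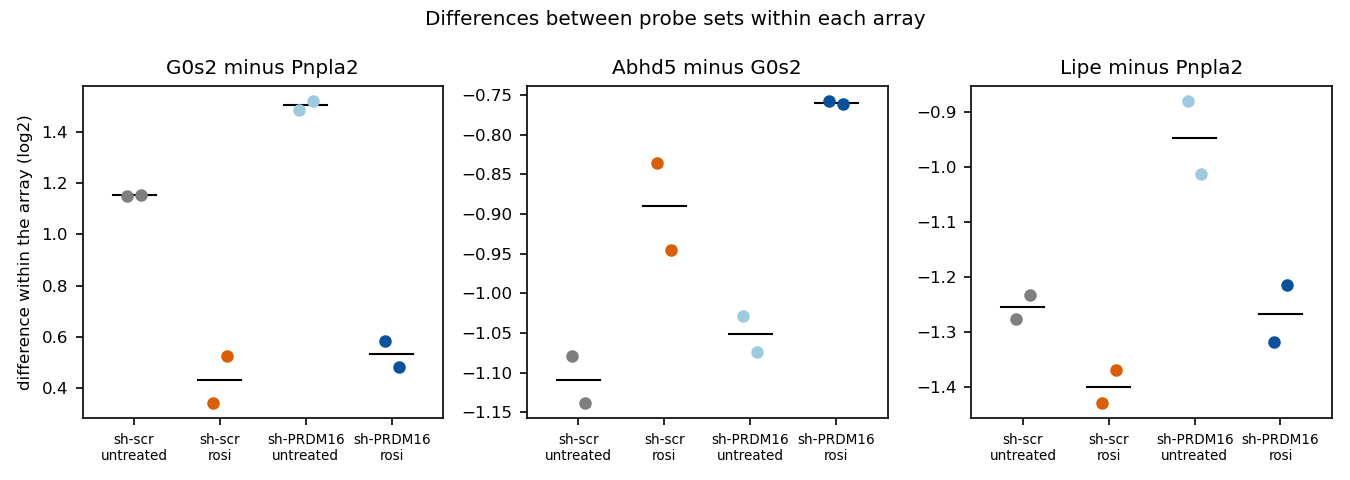
Differences between the log2 values of 2 probe sets on the same array, 1 point per array with a line at the group mean; the axes do not start at 0 and only changes between groups can be read. G0s2 minus Pnpla2 is between 0.34 and 0.58 on the 4 rosiglitazone arrays and between 1.15 and 1.52 on the 4 untreated arrays.

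Over the 8 arrays, with each centred on its median, Pnpla2 correlated with Abhd5 at r = 0.997, with Lipe at 0.997, with Mgll at 0.972 and with G0s2 at 0.961. Abhd6 was the exception, at 0.687 with Pnpla2 and 0.769 with Mgll. The arrays fall into 4 groups and share the contrasts just described, so these values describe likeness of pattern only. Among all tested genes, the patterns closest to Pnpla2 were those of Snx10, Adipor2 and H2-Q10 (r = 0.999, 0.998 and 0.998). Those closest to Lipe were Snx10, Commd9 and Coq6 (0.998, 0.998 and 0.997), and those closest to Mgll were Car2, 4931406C07Rik and Bcl2l13 (0.998, 0.998 and 0.997). For Abhd5 they were Adipor2, Pnpla2 itself and Adh1 (0.998, 0.997 and 0.997). G0s2 was closest to Rpl39l, Nipsnap2 and Aldh1a7 (0.994, 0.993 and 0.993), and Abhd6 to Rgl1, Ctsc and Cdc42se1 (0.969, 0.956 and 0.954). H2-Q10 and Aldh1a7 have near-identical relatives, so the identity of their signal is uncertain.

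The other genes of lipolysis control, a list of 91 genes that leaves out the 9 members, had 80 genes on the array and 74 tested. With sh-PRDM16 in untreated cells, 5 rose and 29 fell (median -0.33). With rosiglitazone 19 rose and 14 fell in control cells (median -0.14), and 26 rose and 3 fell in knockdown cells (median 0.18). With both groups on rosiglitazone, 9 were higher and 13 lower in the knockdown (median 0.04). On median-centred arrays these splits became 11 and 25, 24 and 9, 30 and 7, and 9 and 23. Of all genes tested on the deposited scale, 1.98% rose and 15.7% fell with sh-PRDM16 in untreated cells. The shares were 5.24% and 32.3% with rosiglitazone in control cells, and 10.2% and 3.35% in knockdown cells. With both groups on rosiglitazone they were 10.6% and 4.77%.

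Receptors stand at the top of the cascade. Tshr, the receptor for thyrotropin, which stimulates lipolysis, fell by 1.24 in untreated knockdown cells, and Npr3, which clears natriuretic peptides, fell by 0.80. Tshr rose by 0.59 with rosiglitazone in knockdown cells, and Npr3 was lower by 0.90 in knockdown than in control cells on rosiglitazone. Of 8 tested genes that restrain lipolysis, 6 fell in untreated knockdown cells, against 15.7% of all genes tested. On median-centred arrays 5 fell, against 12.6%. On the deposited scale the falls were led by the succinate receptor Sucnr1 (-1.72), the insulin receptor substrate Irs1 (-1.18) and the short-chain fatty acid receptor Ffar2 (-1.07). With rosiglitazone Irs2 rose by 1.75 in control and 1.53 in knockdown cells, the nicotinic acid receptor Hcar2 by 1.43 and 1.72, and Ffar2 by 0.94 and 0.95. Irs1 fell by 0.92 with rosiglitazone in control cells. The prostaglandin E receptor Ptger3 was lower by 1.44, Sucnr1 by 1.10 and Ffar2 by 1.07 in knockdown than in control cells on rosiglitazone.

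Of 11 tested G-protein and adenylyl cyclase genes, 1 rose and 4 fell with rosiglitazone in control cells, against 5.24% and 32.3% of all genes tested. Their median change of -0.23 was near that of all genes, -0.31. On median-centred arrays 2 rose and 3 fell, against 14.3% and 11.8%. The inhibitory subunit Gnai1 rose by 1.57 there and by 1.90 in knockdown cells, while Rgs2, a regulator of G-protein signalling, fell by 1.39 and 1.00. Rgs2 also fell by 1.48 with sh-PRDM16 in untreated cells and was lower by 1.09 with rosiglitazone. In control cells Adcy7 and Gnai3 fell by 0.81 and 0.69. Adcy7 was higher by 0.77 in knockdown than in control cells on rosiglitazone. Gnas, the stimulatory subunit, changed by -0.23, -0.02, -0.18 and 0.03 in the rosiglitazone comparisons in control and knockdown cells and the knockdown comparisons without and with rosiglitazone, with adjusted p-values from 0.167 to 0.94.

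Of 11 tested protein kinase A genes, 6 fell with rosiglitazone in control cells, against 32.3% of all genes tested. On median-centred arrays 3 fell and 2 rose, against 11.8% and 14.3%. The falls in control cells on the deposited scale were led by the kinase inhibitor Pkia (-1.27), the anchor Akap12 (-0.61) and the regulatory subunit Prkar2a (-0.60). The catalytic subunit Prkacb fell by 0.57 there (adjusted p = 0.0178), and on median-centred arrays by 0.28. In knockdown cells Pkia fell by 0.54, and the anchor Akap1 and the inhibitor Pkig each rose by 0.83. Prkaca, the other catalytic subunit, fell by 0.70 with sh-PRDM16 in untreated cells (adjusted p = 0.0387), as did Akap1 by 0.64, while Prkar2a rose by 0.52. On rosiglitazone Prkar2a, Akap12 and Pkig were higher in the knockdown, by 0.73, 0.71 and 0.71. Among 9 tested phosphodiesterases, which degrade cyclic nucleotides, Pde1b rose with rosiglitazone by 0.85 in control and 1.91 in knockdown cells, and Pde2a fell by 0.48 in control cells. Pde7a rose by 0.96 in knockdown cells, and the difference between its responses passed the test (1.25, adjusted p = 0.0337; median-centred 0.94, adjusted p = 0.13). In untreated knockdown cells Pde7a and Pde1b fell by 0.89 and 0.71, and Pde10a and Pde4b rose by 0.76 and 0.73; on rosiglitazone Pde4b and Pde10a were higher in the knockdown by 0.96 and 0.51. With median-centred arrays the calls in control cells on Adcy7, Akap12, Prkar2a and Pde2a (adjusted p = 0.0536, 0.0542, 0.291 and 0.15), in untreated knockdown cells on Prkaca and Pde1b (0.0517 and 0.0551) and with both groups on rosiglitazone on Prkar2a and Pde10a (0.0658 and 0.128) were not kept.

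Genes of the lipid droplet surface and of product export followed. Of 12 tested, 9 fell in untreated knockdown cells and 7 rose with rosiglitazone in each kind of cell. Of all genes tested, 15.7% fell in that comparison, and 5.24% and 10.2% rose in control and knockdown cells. With median-centred arrays 8 droplet genes fell, and 7 and 10 rose, against 12.6%, 14.3% and 14.6% of all genes. With both groups on rosiglitazone 3 were lower in the knockdown, or 7 with median-centred arrays, against 4.77% and 12.4%. Cidec, which promotes droplet fusion, rose by 2.55 in control and 3.79 in knockdown cells and fell by 1.98 with sh-PRDM16 in untreated cells. The droplet coat protein Plin5 rose by 1.91 and 2.42 and fell by 1.82, and the glycerol channel Aqp7 rose by 1.45 and 1.85 and fell by 1.03. Cidea, a droplet protein of brown and beige adipocytes, rose by 4.02 in control and 1.43 in knockdown cells. The smaller response of Cidea in knockdown cells passed the test (-2.59, adjusted p = 0.00982), as did the larger response of Cidec (1.24, adjusted p = 0.0334; median-centred 0.93, adjusted p = 0.066). On rosiglitazone Cidea, Plin5 and Cidec were lower in the knockdown, by 3.54, 1.31 and 0.74. Plin1, the main droplet gatekeeper, was not analysed here.

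Of 13 other lipid hydrolases tested, 6 fell in untreated knockdown cells, and 5 and 7 rose with rosiglitazone in control and knockdown cells. With median-centred arrays 6 fell, and 6 and 7 rose. With both groups on rosiglitazone 2 were lower in the knockdown, or 6 with median-centred arrays. The shares of all genes are those given for the droplet genes. The carboxylesterases Ces1d and Ces1f rose by 2.24 and 1.82 in control and by 2.71 and 3.14 in knockdown cells, and fell by 2.46 and 2.14 with sh-PRDM16 in untreated cells, although the probes of this multigene family may share signal. On rosiglitazone Ces1d and Ces1f were lower by 1.99 and 0.82 and Abhd2 higher by 0.52 in the knockdown. Lipg, endothelial lipase, rose by 1.41 in knockdown cells, and Lipa, the lysosomal acid lipase, rose by 0.86 in control cells. Pnpla3, a relative of Pnpla2, fell by 1.17 with rosiglitazone in control cells and by 1.14 with sh-PRDM16 in untreated cells. Lpl, which acts outside the adipocyte, fell by 0.43 with sh-PRDM16 in untreated cells (adjusted p = 0.0496; median-centred 0.25, adjusted p = 0.11) and changed by -0.11 and 0.04 with rosiglitazone (adjusted p = 0.511 and 0.877).

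Among 8 tested genes known to respond to cyclic AMP, Ppargc1a, a co-activator of mitochondrial genes, rose by 1.46 and 1.25 with rosiglitazone and fell by 1.27 with sh-PRDM16 in untreated cells. Nr4a1, an immediate early nuclear receptor, moved the other way, falling by 0.88 and 0.75 and rising by 1.07, and Nr4a2 rose by 0.57 with sh-PRDM16 in untreated cells. Fos rose by 0.68 with rosiglitazone in knockdown cells. On rosiglitazone Ppargc1a was lower by 1.47, and Nr4a1 and Fos were higher by 1.20 and 1.08 in the knockdown.

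**Figure D4:**
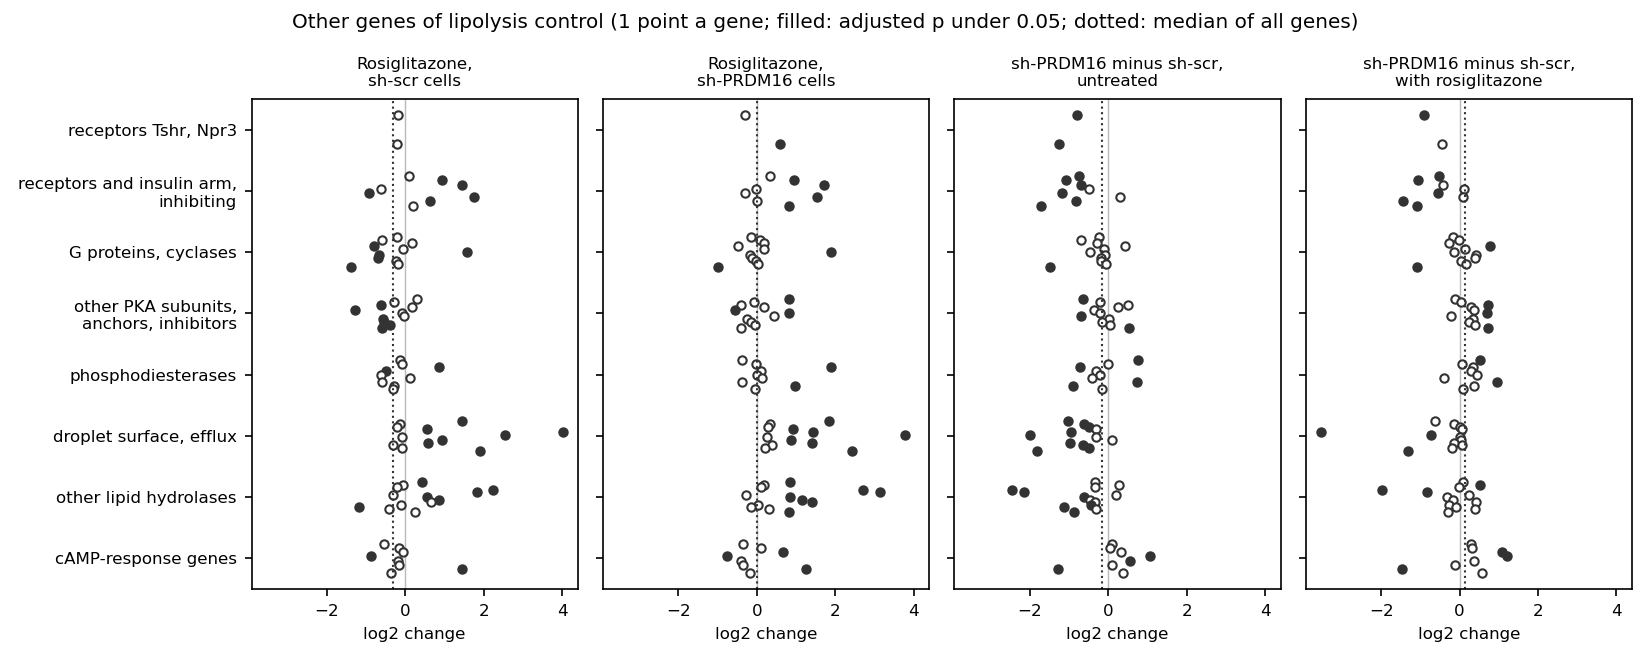
Log2 change of each tested gene of lipolysis control outside the 6 measured members, by family, in 4 comparisons on the deposited scale; filled points had an adjusted p under 0.05 and the dotted line is the median of all genes tested. In untreated knockdown cells 9 of 12 droplet genes and 6 of 8 restraining genes fell, against 15.7% of all genes tested. Cidea stands far to the left when both kinds of cell had rosiglitazone, at -3.54.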

How the data were processed

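RNA of 8 samples, 4 groups of 2, was hybridised to Affymetrix mouse 430A_2 arrays. The authors deposited 1 intensity per probe set and array on a linear scale. For the summarization method, the scaling and the genome build, the sources used here give no information. Members and gene lists were chosen with earlier results of these data known. Of 22690 probe sets, 20380 named 1 gene in the platform annotation, 691 named several, 1555 were not listed and 64 were controls. Of the resulting 12393 genes, 12369 matched a RefSeq entry by Entrez number.

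The probe set with the highest mean stood for its gene, the 25% of genes with the lowest mean were left out, and log2(intensity + 16) of all 8 arrays was fitted in limma 3.58.1 (R 4.3.3) with 1 mean per group. Intensities were used as deposited, since array medians differed by at most 0.38 on the log2 scale, under the limit of 0.5. Contrasts were called at a Benjamini-Hochberg adjusted p under 0.05 over all 9293 genes; fold changes on this scale understate those of dim genes. Probe sets were also fitted singly, and the script was tested on simulated data. The alternatives were median-centred and quantile-normalized arrays, filters, pseudocounts, averaged probe sets, a trended prior, the replicate number as a block, the arrays compared alone, and each array left out.

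Named are all members, from each list and comparison up to 3 called genes with the largest rises and falls, and, whatever their values, Gnas, Prkaca, Prkacb, Plin1 and Lpl; other genes of that fixed set are not reported here. The 3 genes most like each called member by Pearson correlation over the arrays are also named. Some marker genes were left out for length. The number of arrays limits the precision.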

Additional observations from a re-analysis of the deposited data

Results flagged for a closer look

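On the deposited scale the response of Abhd6 to rosiglitazone differed between the knockdown and the control cells, by 1.07 on the log2 scale (SE 0.18, limma adjusted p = 0.0397). With median-centred and quantile-normalized arrays the difference was 0.75 and 0.73 and missed the threshold (limma adjusted p = 0.0924 and 0.103). The response was 0.81 in sh-PRDM16 cells and -0.26 in sh-scr cells, and the latter was 0.04 with median-centred arrays. The second Abhd6 probe set, which was dim, gave a difference of 0.73 (adjusted p = 0.208 over all probe sets), and the first gave an adjusted p of 0.0714 in that fit.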

How the results depend on the processing

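Under the alternatives tried, the 6 calls on untreated knockdown cells stayed between 5 and 6 and the 6 calls with rosiglitazone in knockdown cells stayed at 6. With rosiglitazone in control cells 4 members were called, against 5 with median-centred or quantile-normalized arrays, 3 without the filter (Abhd5 lost, adjusted p = 0.0628) and 2 to 4 when 1 array was left out. With both groups on rosiglitazone 2 members were called, against 5 with median-centred or quantile-normalized arrays, 4 with a trended prior, 1 without the filter, with a pseudocount of 1 or with only the 4 arrays compared, and 0 to 2 when 1 array was left out. For the difference of responses 1 member was called, against 0 with median-centred or quantile-normalized arrays, without the filter, with a pseudocount of 1, with the mean of all probe sets or without any 1 array. It became 6 with the lower 50% of genes left out, a pseudocount of 64 or a trended prior. In those settings 16.7%, 8.41% and 13.9% of all genes tested were called, against 0.753% in the main fit. Of 534 alternatives for single members, 467 stayed on the same side of the threshold, 27 gained the call, 40 lost it and 0 reversed a called value. Among the 467, the uncalled change of Abhd6 in control cells turned from -0.26 to 0.04 with median-centred and 0.06 with quantile-normalized arrays. The causes were not tested.

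By the labels, same-numbered arrays have only a replicate number in common. Their deviations correlated between -0.02 and 0.03, which does not tell whether they shared a culture, an animal or a day. With the replicate block, 3 members were called with rosiglitazone in control cells and 1 with both groups on rosiglitazone, and the other counts were 6, 6 and 1.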
